A study of Bos taurus with 38 samples.

Results

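The 5 genes described here are those that led the ordering of change in rumen papillae of ADLIB bulls between the end of Period 1 and the end of Period 2, and they were followed into the RES bulls. They are listed as ENSBTAG00000018300, ENSBTAG00000000434, ENSBTAG00000030749, ENSBTAG00000017718 and ENSBTAG00000001288, and all 5 were among the 12543 genes listed in both periods. Samples came from 38 Holstein Friesian bulls, each slaughtered once and contributing 1 library, so the bulls of Period 2 are not those of Period 1. The groups were ADLIB Period 1 (n = 9) and RES Period 1 (n = 9), sampled at day 125 of Period 1, and ADLIB Period 2 (n = 10) and RES Period 2 (n = 10), sampled at day 55 of Period 2. ADLIB bulls were fed without limit throughout. RES bulls received a restricted amount in Period 1. They then went through a transition to build up intake and were fed ad libitum for the rest of the time to slaughter. Every bull had the same ration of 70% concentrate and 30% grass silage. The labels name the tissue as rumen epithelium, although their extraction text speaks of muscle. Because the identifiers could not be matched to symbols in the reference table used here, the tissue label was not checked against marker genes and the function of the 5 genes is not stated.

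The rumen is the fermentation chamber of cattle, and its wall is lined by papillae covered with a stratified epithelium. This epithelium takes up the short-chain fatty acids released by the microbes, and oxidises part of them to ketone bodies before they reach the blood. Papillae are known to change in size and in gene expression with the amount of feed eaten and with age.

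Expression is given as CPM, the reads on a gene relative to the library size after TMM scaling, a correction for differences in RNA composition, computed here over all 38 libraries. Levels of different genes are not comparable on this scale, because it does not correct for gene length. Between 5948453 and 11957654 reads per library fell on listed genes, and the worth of 1 read ranged from 0.0744 to 0.213 CPM. Library names begin with 1 of 4 digits (1, 2, 3 or 4), and what the digit stands for is not given in the sources used here. All 10 libraries of digit 1 were shallower than the others, at 5948453 to 7349256 reads. Within each diet, the digits were spread unequally over the periods, and changes within digits are given below.

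The genes were chosen on the ADLIB bulls, Period 2 against Period 1, so their values in that comparison are a description and carry no test. By p-value in limma on log2(CPM + 1), ENSBTAG00000018300, ENSBTAG00000030749, ENSBTAG00000000434 and ENSBTAG00000017718 held ranks 1 to 4 among 12526 genes, and ENSBTAG00000001288 held rank 7. By edgeR's exact test with tagwise dispersions on recovered reads, the 5 genes held ranks 1 to 5. The list was not the same in every tool, since DESeq2 put ENSBTAG00000030749 at rank 7 and ENSBTAG00000001288 at rank 23, with a gene outside the list at rank 3. The quasi-likelihood test of edgeR put ENSBTAG00000001288 at rank 8 and a gene outside the list at rank 5. By size of the log2 change they were not the leaders, with ranks of 3 for ENSBTAG00000030749, 4 for ENSBTAG00000001288, 9 for ENSBTAG00000000434, 32 for ENSBTAG00000018300 and 33 for ENSBTAG00000017718. The gene first outside the list by the exact test had a log2 change of -1.13, and ENSBTAG00000001288, the last inside it, had 1.32. In the limma order, the first gene that is not in the list, at rank 5, had a log2 change of 0.40 (standard error 0.0969). No gene passed an adjusted p under 0.05 within ADLIB in limma (0% of those tested), with 718 at an unadjusted p under 0.05. The quasi-likelihood test of edgeR also called 0 genes, the exact test 3 and DESeq2 4.

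All 5 genes had the same direction of difference in RES as in ADLIB, and 2 of them, both higher in Period 2, were differentially expressed within RES. The RES libraries took no part in choosing the genes. For ENSBTAG00000000434 and ENSBTAG00000001288, RES Period 2 differed from RES Period 1 at an adjusted p under 0.05, a call made for 1.63% of the 12532 genes tested. Both were higher in Period 2, where 0.822% of genes were called higher and 0.806% lower, and none of the 5 was called lower. An unadjusted p under 0.05 was found for 4 of the 5, against 15.5% of genes tested, and only ENSBTAG00000017718 was above it. The same direction in both diets was found for 61% of 12515 genes tested in both. Within RES, the passage of time and the return to full feeding occurred together, and their parts cannot be told apart. In both diets each period was also its own slaughter occasion, which cannot be told apart from time.

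**Figure D1:**
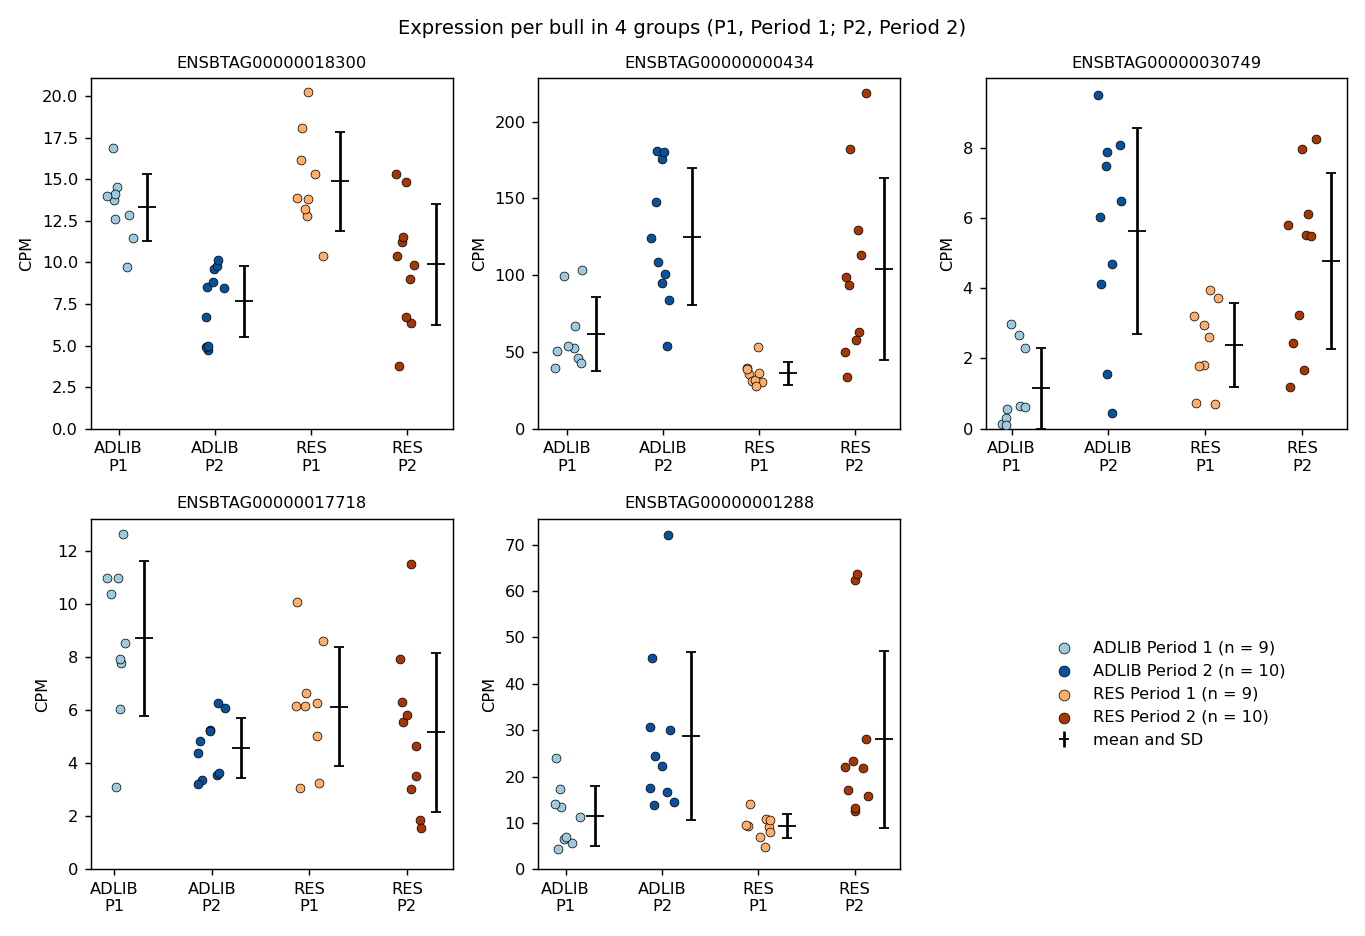
CPM of the 5 genes in each bull, 1 point per bull, by group on the x axis, with the mean and SD beside each group and a y axis that starts at 0 in every panel. For ENSBTAG00000000434 and ENSBTAG00000001288, RES Period 1 bulls lie in a narrow band, from 28.1 to 53.5 CPM and from 4.91 to 14.1 CPM, and RES Period 2 bulls spread from 33.8 to 219 CPM and from 12.5 to 63.6 CPM.

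ENSBTAG00000000434 had values in RES Period 1 of 28.1 CPM at the lowest, 35.5 at the median and 53.5 at the highest, with a mean of 36.2 ± 7.59 CPM (SD, n = 9). In RES Period 2 the lowest, median and highest bulls had 33.8, 96.2 and 219 CPM, with a mean of 104 ± 59.4 CPM (SD, n = 10). Of the 10 RES Period 2 bulls, 8 were above every RES Period 1 bull, and the groups overlapped through the bulls at 33.8 and 49.9 CPM. On the log2 scale the gene rose by 1.31 with a standard error of 0.26 (limma, adjusted p = 0.0108), and the ratio of means was 2.88. With the library digit as a covariate the change was 1.09 and no longer passed the threshold (adjusted p = 0.0697 from limma). Within digits 1 to 4, the differences of mean log2 values were 0.88, 1.44, 1.62 and 0.72, from 4 against 3, 1 against 3, 1 against 3 and 3 against 1 libraries of Period 1 and Period 2. The difference was thus positive within each of the 4 digits.

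In ADLIB, ENSBTAG00000000434 also had its higher mean in Period 2, from a higher level in Period 1 than in RES. ADLIB Period 1 bulls had 39.3 CPM at the lowest, 52.8 at the median and 103 at the highest, with a mean of 61.7 ± 23.9 CPM (SD, n = 9). ADLIB Period 2 bulls had 53.9, 117 and 181 CPM at these points and a mean of 125 ± 44.4 CPM (SD, n = 10). The log2 change that chose the gene was 1.00 (standard error 0.217). The groups rank, from low to high on the log2 scale, as RES Period 1, ADLIB Period 1, RES Period 2 and ADLIB Period 2. Only the gap between RES Period 1 and ADLIB Period 1, of 0.70 (standard error 0.26), was larger than the SD of both of its groups. At the end of Period 2, RES was lower than ADLIB by a log2 difference of -0.38 (standard error 0.246).

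ENSBTAG00000001288 ran from 4.91 CPM through a median of 9.45 to 14.1 CPM in RES Period 1, with a mean of 9.33 ± 2.57 CPM (SD, n = 9). RES Period 2 bulls ran from 12.5 CPM through a median of 22.0 to 63.6 CPM, with a mean of 28.0 ± 19.1 CPM (SD, n = 10). The groups met only at their edges, as 8 of 10 Period 2 bulls were above all Period 1 bulls and 8 of 9 Period 1 bulls were below all Period 2 bulls. A pair of bulls, replicates 7 and 10 with 62.4 and 63.6 CPM, stood above the rest, the next of which had 28.1 CPM. Both were libraries of digit 2, of which RES Period 1 had only 1, at 9.56 CPM. The gene rose by 1.31 on the log2 scale with a standard error of 0.262 (limma, adjusted p = 0.0111), and leaving out any single RES bull kept the change between 1.16 and 1.41. Within digits 1 to 4 the changes were 0.90, 2.13, 0.35 and 1.49, from the same numbers of libraries as above.

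The ADLIB values of ENSBTAG00000001288 were close to those of RES in each period. ADLIB Period 1 bulls had 4.33, 11.2 and 24.1 CPM at the lowest, median and highest, with a mean of 11.5 ± 6.43 CPM (SD, n = 9), and ADLIB Period 2 bulls had 13.9, 23.3 and 72.1 CPM, with a mean of 28.8 ± 18.0 CPM (SD, n = 10). The log2 change within ADLIB was 1.22 (standard error 0.302). The order of groups was RES Period 1, ADLIB Period 1, RES Period 2 and ADLIB Period 2, as for ENSBTAG00000000434. Here the step between the Period 1 and the Period 2 groups, 1.15 between ADLIB Period 1 and RES Period 2, exceeded the SDs of its groups. The steps between the diets within a period, 0.15 and 0.08, were smaller than the SDs. Replicate 8 of ADLIB Period 2 had the highest value of the 38 bulls, 72.1 CPM from 699 reads.

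ENSBTAG00000018300 had its lower mean in Period 2 in both diets. RES Period 1 bulls had 10.4, 13.9 and 20.2 CPM at the lowest, median and highest, with a mean of 14.9 ± 2.97 CPM (SD, n = 9), and RES Period 2 bulls had 3.75, 10.1 and 15.3 CPM, with a mean of 9.89 ± 3.64 CPM (SD, n = 10). Of the RES Period 2 bulls, 5 of 10 were below every RES Period 1 bull. The log2 change was -0.61 (standard error 0.184), and its adjusted p of 0.0975 from limma missed the threshold, with an unadjusted p of 0.003329. The 95% confidence interval of the change, from -0.99 to -0.22, contains the ADLIB change of -0.76 (standard error 0.141). In ADLIB the values went from 9.72, 13.7 and 16.9 CPM in Period 1, a mean of 13.3 ± 2.02 CPM (SD, n = 9), to 4.73, 8.47 and 10.1 CPM in Period 2, a mean of 7.66 ± 2.15 CPM (SD, n = 10). There, 8 of 10 Period 2 bulls were below all Period 1 bulls. The order from low to high was ADLIB Period 2, RES Period 2, ADLIB Period 1 and RES Period 1, and no neighbours in it were further apart than the larger of their SDs. Within digits the RES change was -0.51, -0.65, -0.86 and -0.04, the last from 3 libraries against 1.

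ENSBTAG00000030749 had the fewest reads of the 5, from 1 to 88 per library, and the largest change in ADLIB. ADLIB Period 1 bulls had 0.111, 0.632 and 2.99 CPM at the lowest, median and highest, and a mean of 1.15 ± 1.16 CPM (SD, n = 9). ADLIB Period 2 bulls had 0.448, 6.26 and 9.5 CPM, and a mean of 5.63 ± 2.92 CPM (SD, n = 10). The log2 change was 1.58 (standard error 0.341) on the log2(CPM + 1) scale, which understates changes at such low levels. On recovered reads, with no constant of 1 CPM added, the exact test gave 2.26.

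In RES the values of ENSBTAG00000030749 went from 0.694, 2.62 and 3.94 CPM in Period 1, with a mean of 2.39 ± 1.20 CPM (SD, n = 9), to 1.20, 5.50 and 8.25 CPM in Period 2, with a mean of 4.77 ± 2.50 CPM (SD, n = 10). Of the 10 Period 2 bulls, 6 were above all Period 1 bulls. Period 2 minus Period 1 was 0.72 on the log2 scale, with a standard error of 0.278 (limma, unadjusted p = 0.01728, adjusted p = 0.21) and a 95% confidence interval from 0.14 to 1.29. Within digits 1 to 4 it was 0.48, 1.64, 0.46 and 0.01. From low to high the groups ranked as ADLIB Period 1, RES Period 1, RES Period 2 and ADLIB Period 2. At the end of Period 1, RES was higher by 0.73 (standard error 0.336), about the size of the SD in ADLIB, and at the end of Period 2 the difference was -0.15 (standard error 0.318).

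ENSBTAG00000017718 had its lower mean in Period 2 in ADLIB, and in RES its difference was smaller than the spread between bulls. RES Period 1 bulls had 3.06, 6.17 and 10.1 CPM at the lowest, median and highest, with a mean of 6.14 ± 2.26 CPM (SD, n = 9), and RES Period 2 bulls had 1.55, 5.12 and 11.5 CPM, with a mean of 5.18 ± 3.00 CPM (SD, n = 10). The highest RES Period 2 bull was above every RES Period 1 bull, and 3 of 10 were below every one of them. Period 2 minus Period 1 was -0.30 on the log2 scale, with a standard error of 0.259 (limma, adjusted p = 0.631) and a 95% confidence interval from -0.83 to 0.24 that contains both 0 and the ADLIB change of -0.75 (standard error 0.181). The direction was not the same in all libraries, with changes of 0.20, -0.80, -1.02 and 0.28 within digits 1 to 4. In ADLIB the values went from 3.11, 8.52 and 12.7 CPM, with a mean of 8.71 ± 2.93 CPM (SD, n = 9), to 3.21, 4.61 and 6.28 CPM, with a mean of 4.58 ± 1.13 CPM (SD, n = 10). No ADLIB Period 2 bull was below the lowest ADLIB Period 1 bull, and 7 of 9 Period 1 bulls were above all those of Period 2. From low to high the groups ranked as ADLIB Period 2, RES Period 2, RES Period 1 and ADLIB Period 1, with every step smaller than the larger SD of its groups.

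**Figure D2:**
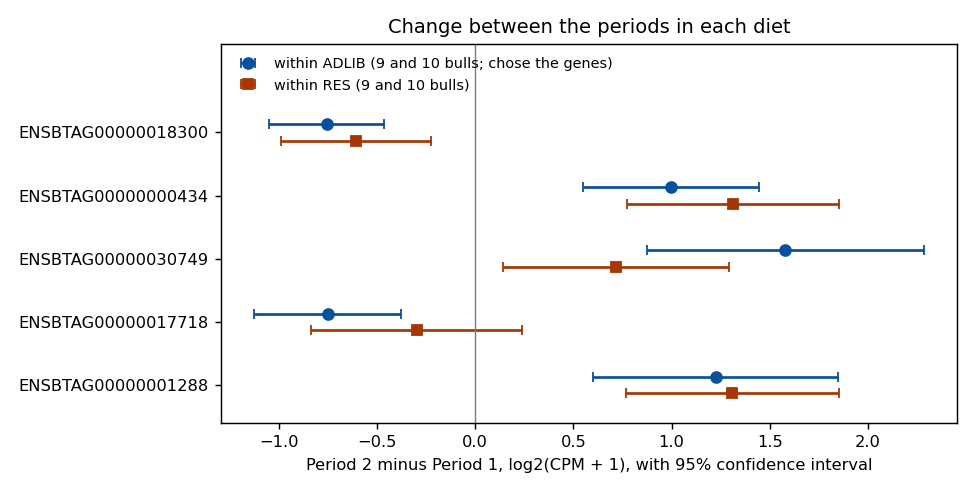
Period 2 minus Period 1 on the log2(CPM + 1) scale (x axis) for each of the 5 genes (y axis), within ADLIB (circles) and within RES (squares), with 95% confidence intervals from limma. The ADLIB changes chose the genes. The RES interval excludes 0 for every gene except ENSBTAG00000017718, before adjustment for the number of genes tested.

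The question of whether the ADLIB change was also seen in RES rests on the difference between the changes, which was estimated in a fit of all 4 groups. It shares the ADLIB bulls that chose the genes, so the values are a description with no test. The RES change minus the ADLIB change was 0.15 for ENSBTAG00000018300, with a 95% confidence interval from -0.33 to 0.63. It was 0.31 for ENSBTAG00000000434, with an interval from -0.41 to 1.04, and 0.08 for ENSBTAG00000001288, with an interval from -0.77 to 0.93. For ENSBTAG00000017718 it was 0.45, with an interval from -0.20 to 1.11. For ENSBTAG00000030749 it was -0.88, with an interval from -1.82 to 0.05, the estimate furthest from 0 among the 5 genes. The genes were chosen for strong ADLIB changes, so these intervals are not read as tests against 0. The value for ENSBTAG00000030749 depended on the scale, as its reads were few. With a pseudocount of 0.1 CPM it was -1.54, with an interval from -2.99 to -0.09. On recovered reads in edgeR's quasi-likelihood fit it was -1.24. With the pseudocount of 0.1 the differences of the other 4 genes lay between 0.08 and 0.48, and on recovered reads between 0.20 and 0.66.

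In absolute size, the RES change exceeded the ADLIB change in ENSBTAG00000000434 and ENSBTAG00000001288 and was smaller in the other 3 genes. Across all genes tested in both diets, 36.7% had the same direction and a larger change within RES. Among the 100 genes that followed the 5 in the ADLIB order, 85 had the same direction in RES and 14 were called within RES. Their median size of change was 0.40 in ADLIB and 0.19 in RES on the log2 scale. These genes were taken in ADLIB order, so a larger size in ADLIB is favoured by the choice. Over all genes tested, the median size was 0.085 in ADLIB and 0.107 in RES.

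**Figure D3:**
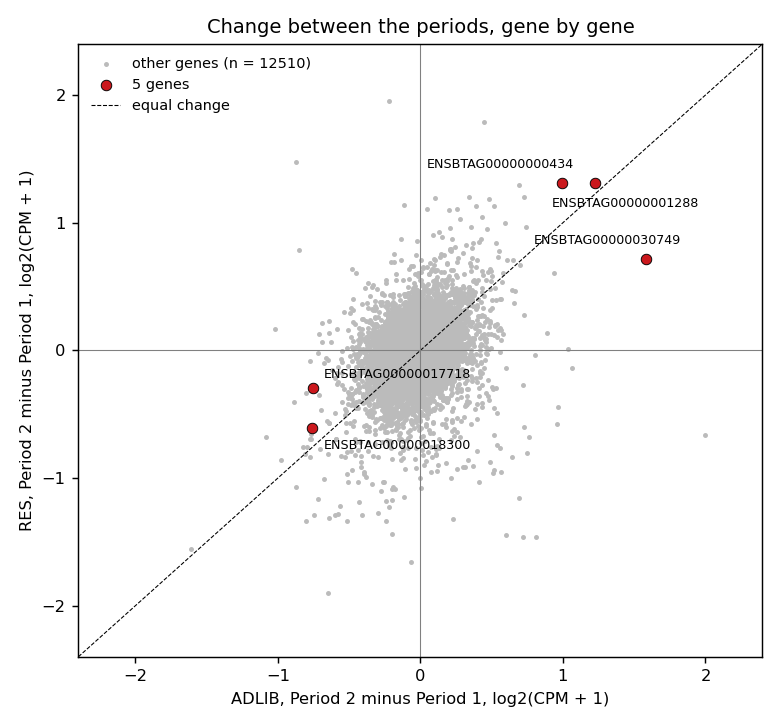
Period 2 minus Period 1 within ADLIB (x axis) and within RES (y axis), both on the log2(CPM + 1) scale, for 12515 genes, with the 5 genes in red and a dashed line of equal change. The 5 genes lie in the quadrants of like direction, 3 up and 2 down. Of the 3 up, ENSBTAG00000000434 and ENSBTAG00000001288 lie above the line and ENSBTAG00000030749 below it. The 2 down, ENSBTAG00000018300 and ENSBTAG00000017718, also lie above the line, as their decrease was smaller in RES than in ADLIB.

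Within RES, bulls differed more from each other in these genes in Period 2, which is described here without a test. The SD of log2(CPM + 1) was larger in RES Period 2 for all 5 genes, against 55.5% of 12543 genes. It went from 0.27 to 0.84 in ENSBTAG00000000434, from 0.38 to 0.80 in ENSBTAG00000001288 and from 0.27 to 0.54 in ENSBTAG00000018300. In ADLIB, 3 of the 5 had the larger SD in Period 2, against 58.6% of genes, and in ENSBTAG00000017718 it went from 0.53 to 0.29. No gene of the 5 had groups without overlap, in RES or in ADLIB. Such separation was found for 0.159% of genes in RES and for 0% in ADLIB. Pooled over the 4 groups, the SD within a group was between 0.38 in ENSBTAG00000018300 and 0.75 in ENSBTAG00000030749, with a median over all genes of 0.256. Between 81.9% and 98.3% of genes varied less than these 5.

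Whether bulls high in a given member were also high or low in another was examined on deviations from the group means. The test was planned over all 38 bulls. Because the ADLIB bulls chose the genes, it was limited to the 19 RES bulls after the data had been seen. Among 10 pairs, ENSBTAG00000018300 and ENSBTAG00000000434 were inversely correlated, with r = -0.79 (permutation test within groups, two-sided, p = 0.00073, adjusted p = 0.0073 over the 10 pairs). Spearman's rho was -0.75 (permutation test, p = 0.00091, adjusted p = 0.0091). Without the 2 RES bulls furthest from the median of ENSBTAG00000018300, r was -0.68. Over all 38 bulls, as planned, r was -0.64 (permutation test, adjusted p = 0.0022), but these include the bulls that chose the genes. As a description, r was -0.40 within the 19 ADLIB bulls, and the difference between the diets was not tested. Within library digits, over both diets, it was -0.69, -0.74, -0.16 and -0.84 for 10, 10, 8 and 10 bulls, so it was weak in the libraries with digit 3.

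In RES Period 2, 8 of 10 bulls lay on opposite sides of the group means of log2(CPM + 1) in ENSBTAG00000018300 and ENSBTAG00000000434, as did 6 of 9 in RES Period 1. In ADLIB, 7 of 10 bulls did so in Period 2 and 4 of 9 in Period 1. Replicate 4 of RES Period 2 had the highest value of ENSBTAG00000000434, 219 CPM, and the lowest of ENSBTAG00000018300, 3.75 CPM. Replicates 7 and 9, with 15.3 and 14.8 CPM of ENSBTAG00000018300, had 58.0 and 49.9 CPM of ENSBTAG00000000434. Replicates 5 and 10 did not follow this, being above the group means of log2(CPM + 1) in both genes, with 10.4 and 9.84 CPM of ENSBTAG00000018300 and 129 and 98.9 CPM of ENSBTAG00000000434. Over all 38 bulls, as a description, 42 genes had a correlation with ENSBTAG00000018300 of larger size than ENSBTAG00000000434 did.

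The second pair in size within RES was ENSBTAG00000000434 and ENSBTAG00000030749, with r = 0.59 (permutation test, p = 0.0147, adjusted p = 0.0736). Its Spearman's rho was 0.65 (permutation test, p = 0.00765, adjusted p = 0.0382), so within RES it passed the threshold by rank only. Over all 38 bulls, as planned, the pair had r = 0.30 and rho = 0.33. It was short of the threshold by both there (permutation tests, adjusted p = 0.297 and 0.312). In ADLIB its r was 0.02. ENSBTAG00000018300 and ENSBTAG00000030749 had r = -0.44 within RES (permutation test, adjusted p = 0.285). The other 7 pairs had Pearson correlations within RES between -0.31 and 0.24 and adjusted p-values of at least 0.559 (permutation tests). Among them, ENSBTAG00000000434 and ENSBTAG00000001288, the genes called within RES, had r = -0.06 (permutation test, p = 0.854, adjusted p = 0.934), which is no detectable correlation at 19 bulls.

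**Figure D4:**
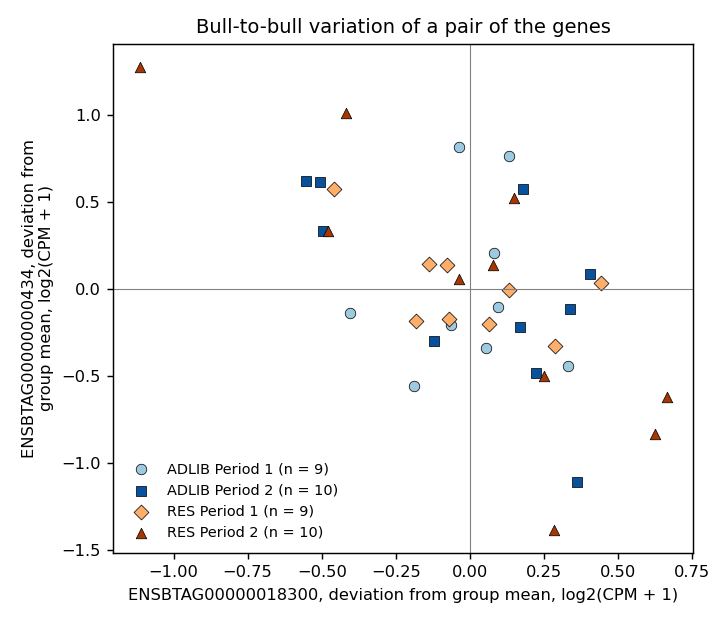
Deviation of each bull from its group mean on the log2(CPM + 1) scale, ENSBTAG00000018300 on the x axis and ENSBTAG00000000434 on the y axis, 1 point per bull with a colour and marker for each of the 4 groups. The points fall from upper left to lower right (r = -0.64 over all 38 bulls, -0.79 over the RES bulls), with RES Period 2 bulls at both ends.

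Changes within the library digits were compared for both diets. In ADLIB, digits 1 to 4 held 1 against 2, 4 against 2, 2 against 2 and 2 against 4 libraries of Period 1 and Period 2. These libraries chose the genes, so agreement of direction within them is favoured by the choice and is only a description. All 5 genes there kept the direction of the whole comparison within each of the 4 digits. Their smallest differences within a digit were 0.11 for ENSBTAG00000001288, in the libraries with digit 4, and -0.24 for ENSBTAG00000017718, in those with digit 3. In RES, ENSBTAG00000000434 and ENSBTAG00000001288 were higher in Period 2 within each digit. ENSBTAG00000018300 and ENSBTAG00000030749 had their direction in digits 1 to 3 and were close to 0 in digit 4, at -0.04 and 0.01 on the log2 scale, where mean CPM of ENSBTAG00000030749 were 2.45 in both periods. ENSBTAG00000017718 kept its direction in 2 of 4. Digits with a single library in a period cannot show the spread between bulls there.

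**Figure D5:**
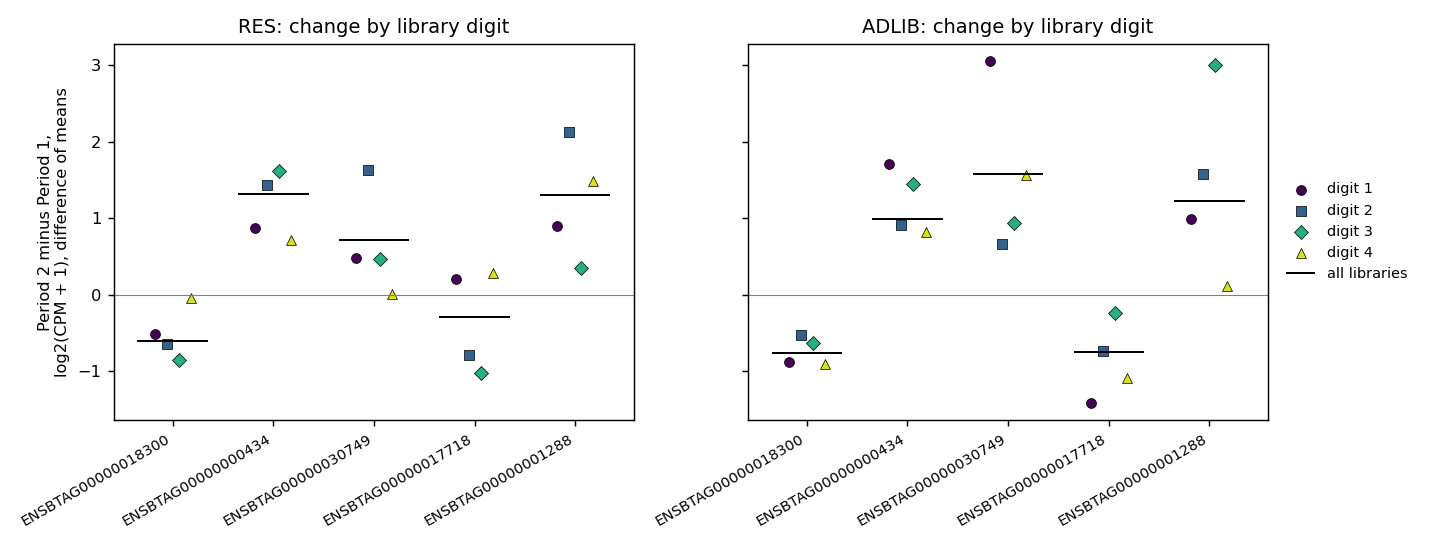
Period 2 minus Period 1 as a difference of mean log2(CPM + 1) values (y axis) for the 5 genes (x axis), within the libraries of each digit (points) and from the fit of all libraries (bars), for RES on the left and ADLIB on the right. Within RES, ENSBTAG00000017718 has points on both sides of 0, and ENSBTAG00000000434 lies between 0.72 and 1.62.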

How the data were processed

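Gene expression was measured by RNA-seq of rumen papillae from 38 bulls, grouped by sample titles. Per the study's methods, the authors trimmed reads (FASTX-Toolkit), aligned them to UMD3.1 with TopHat and Bowtie2, counted them with HTSeq on Ensembl genes and removed genes with low counts. The deposited signal values carry no stated unit. In every library 100% of values were whole multiples of a step (tolerance 0.02 of a read), and the values were taken as CPM of the TMM-scaled library size. Whole reads were recovered from them. From 12634 genes in Period 1 and 12711 in Period 2, the 12543 listed in both were used.

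Within each diet, genes were kept by filterByExpr, scaled by TMM over the 19 libraries and tested with limma 3.58.1 (trend) on log2(CPM + 1) in R 4.3.3, with Benjamini-Hochberg adjustment over all genes tested, two-sided. A fit of all 4 groups gave the differences between diets. Printed CPM are scaled over all 38 libraries. edgeR 4.0.16 and DESeq2 1.42.0 on recovered reads were alternatives. Their use for the order within ADLIB was chosen after seeing the data. Correlations between genes were planned over all 38 bulls, with 100000 permutations within groups. Testing them in RES bulls alone was a choice made after seeing the data. Differences between diets with a pseudocount of 0.1 and on recovered reads were also added then. Figures and summaries used Python 3.11.15, numpy 2.4.6, pandas 2.3.3, scipy 1.17.1 and matplotlib 3.10.9. Scripts were tested on simulated data.

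The 5 genes, gene lists and tests were chosen with earlier results of these data known. The rule for named genes was the 5 genes, the gene just outside them, and, where identifiers could be paired with symbols, the 3 genes most correlated with each and members of gene lists and cell type markers. Of 12802 identifiers 0 were paired, so those lists were not analysed here. No sequence was used here.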

Additional observations from a re-analysis of the deposited data

How the results depend on the processing

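Within RES, 13 alternatives and the omission of each bull in turn were compared with the reported fit, and no gene changed direction under any of them. ENSBTAG00000001288 stayed past the threshold in all 13 (log2 change 1.14 to 1.58), and ENSBTAG00000018300, ENSBTAG00000030749 and ENSBTAG00000017718 stayed short of it in all 13, with adjusted p-values of 0.061 to 0.269, 0.0866 to 0.383 and 0.538 to 0.811 (limma, edgeR or DESeq2). ENSBTAG00000000434 stayed past it in 12 and lost the call with the library digit as a covariate (1.093, adjusted p = 0.06969 from limma), which left 1 of the 5 genes called in place of 2. The cause was not tested. Leaving out each bull kept 2 of the 5 called, with log2 changes of 1.17 to 1.46 in ENSBTAG00000000434, 1.16 to 1.41 in ENSBTAG00000001288, -0.68 to -0.48 in ENSBTAG00000018300, 0.60 to 0.86 in ENSBTAG00000030749 and -0.43 to -0.17 in ENSBTAG00000017718. The ADLIB bulls chose the genes, so their omission is a description. In ADLIB the omissions gave 0.93 to 1.11, 1.06 to 1.37, -0.81 to -0.70, 1.48 to 1.79 and -0.90 to -0.68 in the same order. There, a pseudocount of 0.1 gave 2.4716 in ENSBTAG00000030749 in place of 1.58, as less is added to its low values. The correlation of ENSBTAG00000018300 and ENSBTAG00000000434 over all 38 bulls was -0.64, against -0.79 in the RES bulls. The 204 genes called within RES became 456 with DESeq2, 313 with the exact test, 103 with the digit, 119 with the replicate block and 136 to 286 on leaving out each bull. Replicate numbers are shared by different bulls. The deviations of same-numbered RES bulls had a mean correlation of 0.032 (range -0.225 to 0.244), against -0.003 for RES bulls with different numbers. Of 9 same-numbered pairs, 3 were over 0.1, and 1 bull was best matched to its own number. The numbers were therefore not treated as pairs. The study blocked its bulls on live-weight and age, and the sample titles do not say whether the numbers follow those blocks. With the replicate block the same 2 genes were called, ENSBTAG00000000434 with 1.30 and ENSBTAG00000001288 with 1.16. At 1 to 88 reads per library, depth limits ENSBTAG00000030749 most, and 3 reads were worth from 0.223 to 0.64 CPM.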
